A study of Mus musculus with 2 samples.

Results

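The uroplakin genes Upk1a, Upk1b, Upk2, Upk3a and Upk3b were followed through a single-cell RNA-seq comparison of mouse eye cups. The members were taken by gene symbol and make up 5 of the 31053 genes in the count matrices. They were selected on their measured levels in the pigment epithelium of these 2 libraries, which were low in the mutant, so that contrast is given as a description. One library came from Myrf fl/fl controls, in which both Myrf alleles are floxed and Rx>cre is not carried, and the other from Rx>cre Myrf fl/fl mutants, in which the same alleles meet a Cre that is active in the early eye field. Both were taken at postnatal day 0, with cornea, lens and optic nerve removed, and each was a pool of 3 eye cups. Transcripts were counted at their 3′ ends. With 1 library per genotype there was no replicate of either genotype, and no test between genotypes was possible. Every interval below is a 95% interval that covers counting error only.

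Uroplakins are membrane proteins best known from the apical surface of the urothelium, the lining of the bladder, where they assemble into rigid plaques. UPK1A and UPK1B are tetraspanins, and UPK2, UPK3A and UPK3B are partners that cross the membrane a single time. UPK1A pairs with UPK2, while UPK1B pairs with UPK3A or UPK3B and carries them to the cell surface. Upk3b is also known as a gene of mesothelium, the lining of body cavities. The retinal pigment epithelium (RPE) is the pigmented monolayer behind the neural retina, and MYRF is a transcription factor that is released from the endoplasmic reticulum membrane to enter the nucleus.

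The tetraspanin genes lie on the minus strand of their chromosomes in GRCm38, the build of the files, by the GENCODE M21 annotation. Upk1a (ENSMUSG00000006313) spans chr7:30603092-30612847 and Upk1b (ENSMUSG00000049436) spans chr16:38773184-38800328, and each has 8 exons in the transcript used here. Among the partners, Upk2 (ENSMUSG00000041523) lies at chr9:44452715-44454976 on the minus strand with 5 exons. Upk3a (ENSMUSG00000022435) lies at chr15:85017141-85022547 and Upk3b (ENSMUSG00000042985) at chr5:136038496-136046487, both on the plus strand with 6 exons. No other annotated gene overlaps any of the 5. The gene Upk3bl, a relative of Upk3b that is not a member, begins 8004 bp beyond the end of Upk3b on the same strand, at chr5:136054492-136064326, and was measured beside the members as their nearest neighbour.

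RefSeq promoter windows, from 250 bases before to 50 bases after the start site in GRCm38.p6, were at hand for 3 of the 5 members (Upk1a, Upk3a and Upk3b). The windows of Upk3b and of its neighbour Upk3bl are printed because the neighbours lie close together and differed in their contrast between the genotypes. Both are read 5′ to 3′ on the plus strand, Upk3b at chr5:136038246-136038545 and Upk3bl at chr5:136057017-136057316, and capitals mark a match to CTGGCAC, a word reported for MYRF binding.
Upk3b: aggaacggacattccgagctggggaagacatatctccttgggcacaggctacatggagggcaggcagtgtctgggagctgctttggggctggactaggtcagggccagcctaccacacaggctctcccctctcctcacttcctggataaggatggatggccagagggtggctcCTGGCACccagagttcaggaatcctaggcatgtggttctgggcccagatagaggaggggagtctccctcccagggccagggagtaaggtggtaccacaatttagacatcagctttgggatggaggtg
Upk3bl: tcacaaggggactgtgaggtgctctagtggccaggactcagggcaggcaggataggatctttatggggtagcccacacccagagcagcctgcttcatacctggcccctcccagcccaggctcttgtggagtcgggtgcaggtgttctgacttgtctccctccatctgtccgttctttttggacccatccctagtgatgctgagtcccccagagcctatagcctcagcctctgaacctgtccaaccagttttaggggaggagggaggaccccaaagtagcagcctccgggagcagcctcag
The Upk3bl window surrounds a RefSeq start that lies inside the GENCODE span of the gene, and the stretch before the outermost start of Upk3bl was not searched. The RefSeq start in the Upk1a window also lies inside the GENCODE span of its gene. The word CTGGCAC, searched on both strands, begins 77 bases before the start site of Upk3b and is absent from the windows of Upk3bl, Upk1a and Upk3a. It was found in 5.01% of the 32851 promoter windows of this length. The second MYRF word, CTGGTAC, was in none of these windows and in 2.24% of all windows. Of the words searched for other factors of pigment cells, the MITF word CATGTG begins 49 bases before the start of Upk3b and was in 14.2% of all windows. The MITF word CACGTG (7.15% of windows) and the SOX words ACAAAG (18.7%) and ACAATG (12.6%) were in none of the 4 windows. The OTX2 word TAATCC (7.06%) lies on the opposite strand of the Upk3a window, with its match beginning 239 bases before the start. None of the matches in these windows overlapped another. A match is a description of the letters and not a measured binding site.

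The control library held 14305 barcodes and 79017429 unique molecular identifiers (UMIs, counts of captured transcripts), and the mutant library 12222 barcodes and 76272867 UMIs. After filters and removal of predicted doublets, 12485 control and 10813 mutant cells remained. Cells were clustered without the members and named from marker lists, since no deposited annotation was used, and names are written with "-like" for that reason. RPE-like cells were 2 of 37 clusters, with 516 control and 205 mutant cells, and held 10 and 11 of the 12 RPE markers. Median depth was 2427 UMIs in control and 10566 in mutant RPE-like cells. Pmel, a melanosome gene, was found in 95.7% of the control and 96.6% of the mutant RPE-like cells, while Pax3, a melanocyte gene, had 2 and 0 UMIs. Rpe65, a marker of mature RPE, had only 12 and 0 UMIs at this age. Surface epithelium-like cells, the keratin-rich cells of the ocular surface, numbered 123 and 67 in 2 clusters. Transcripts typical of other cell types differed between the libraries in retinal progenitor-like cells, where Cryaa, a lens crystallin gene, was at 47.2 CPM (UMIs scaled to a common total of the class) in the control and had 0 UMIs in the mutant. Col1a1, a collagen gene of mesenchyme, was in 88.2% of the control and 28.6% of the mutant cells of that class. Free RNA itself was not measured. The libraries shared 59 barcodes, of which 6 kept cells were RPE-like.

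In control eye cups Upk3b was concentrated in RPE-like cells, and Upk1b was split between RPE-like and surface epithelium-like cells. RPE-like cells held 1072 of the 1161 Upk3b UMIs in control cells (92.3%, 90.7 to 93.8) and surface epithelium-like cells 33 of them (2.84%). For Upk1b, 455 of 994 control UMIs (45.8%, 42.6 to 48.9) were in RPE-like cells and 484 (48.7%, 45.5 to 51.8) in surface epithelium-like cells. In the mutant library the surface epithelium-like cells held 53 of 62 Upk3b UMIs (85.5%) and 475 of 487 Upk1b UMIs (97.5%). Outside both classes Upk3b was at 0.87 CPM in control cells (56 UMIs in 11846 cells) and 0.03 CPM in mutant cells (2 UMIs in 10541 cells). Upk1b was at 0.85 CPM (55 UMIs) and 0.10 CPM (6 UMIs) in the same cells. These are levels per library total of the class, and 3′ UMI counts carry no scaling for gene length, so levels were compared between classes and genotypes and not between genes.

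**Figure D1:**
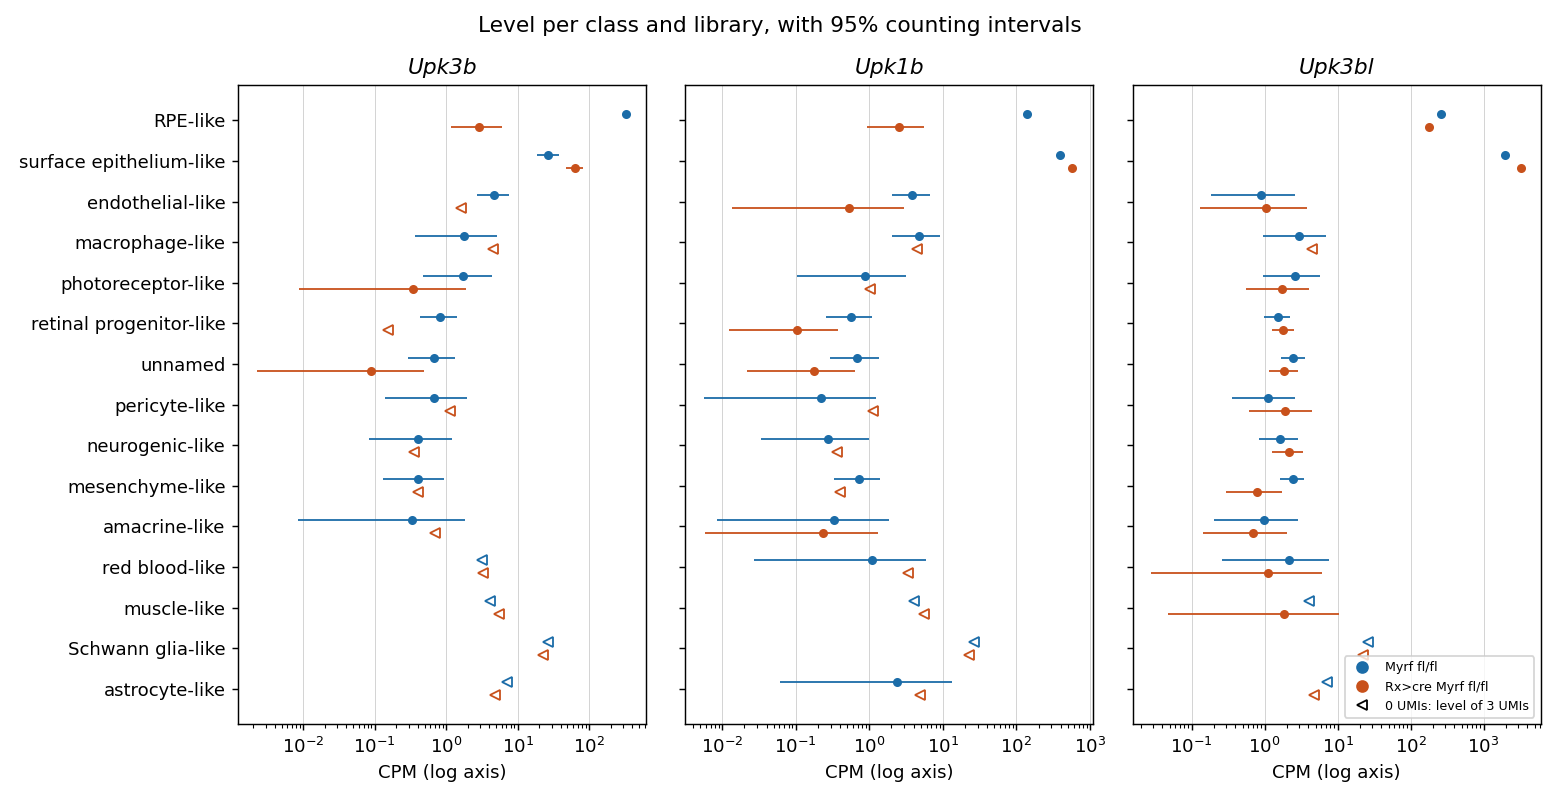
Level of Upk3b, Upk1b and the neighbour Upk3bl (CPM, log axis) in each class of cells, with blue points for Myrf fl/fl and orange points for Rx>cre Myrf fl/fl and bars for 95% Poisson intervals; open triangles stand at the level of 3 UMIs where a class had 0 UMIs. Control RPE-like cells lie above every other class for Upk3b at 326.5 CPM, and surface epithelium-like cells lie highest for Upk1b at 396 and 568 CPM.

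The order of the classes was clear at the top and not below it. For Upk3b in the control library, RPE-like cells (326.5 CPM, 307 to 347) stood above surface epithelium-like cells (27.0 CPM, 18.6 to 37.9), which stood above endothelial-like cells (4.74 CPM, 2.71 to 7.70). Endothelial-like cells had 16 Upk3b UMIs in 5 of 435 cells, 11 of them in 1 cell. Of the 6 control endothelial-like cells with Upk3b or Upk1b, 2 also held at least 3 UMIs of pigment genes, against 2.56% of the other endothelial-like cells. Macrophage-like, photoreceptor-like and retinal progenitor-like cells followed with overlapping intervals, the last at 0.82 CPM (0.44 to 1.40). For Upk1b the control order was surface epithelium-like (396 CPM, 362 to 433), RPE-like (139 CPM, 126 to 152) and then macrophage-like cells (4.70 CPM, 2.03 to 9.26), whose 8 UMIs lay in 3 cells. A cluster of 30 control and 18 mutant cells with 9 of 10 melanocyte markers, left unnamed because its 10 leading genes held more RPE than melanocyte markers, held 0 UMIs of every member in both libraries. Its count of 0 allows a control level of up to 5.33 CPM.

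In RPE-like cells the uroplakin transcripts of the control were those of the UPK1B and UPK3B pair, and both were close to absent from the mutant library. Upk3b had 1072 UMIs (326.5 CPM) in control cells, but 7 UMIs (2.92 CPM, 1.18 to 6.03) in mutant cells. Its log2 ratio of mutant to control, taken on CPM plus 1, was -6.38, with a counting interval of the plain ratio from -8.12 to -5.75, a level 112-fold lower. Upk1b had 455 UMIs (139 CPM) and 6 UMIs (2.51 CPM, 0.92 to 5.46), a log2 ratio of -5.31 (-7.24 to -4.66) and a level 55.3-fold lower. The intervals of the libraries lie far apart for both genes. Upk1a, Upk2 and Upk3a had 0 UMIs in either library, which allows a level of up to 0.91 CPM for the control library and 1.25 CPM for the mutant library. These contrasts helped choose the members and are given without a test.

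Of the 5 members, 2 had at least 10 UMIs in either library and counted as measured, Upk3b and Upk1b, and both were at least 16-fold lower in the mutant. They passed that minimum through the control alone and were selected on this contrast, so nothing is read from their count or rank. Over all 11678 measured genes 26 were at least 16-fold lower (0.223%) and 2 at least 16-fold higher (0.0171%), while 748 (6.41%) were at least 2-fold lower and 343 (2.94%) at least 2-fold higher. Upk3b stood 2nd and Upk1b 15th from the lowest log2 ratio, behind Rgr, which encodes an RPE opsin, in 1st place at -7.28. The lens crystallin genes Cryge (258 and 0 UMIs) and Cryaa (216 and 0 UMIs) were among the genes next to Upk3b. In control cells Cryaa was at 65.8 CPM in RPE-like and 47.2 CPM in retinal progenitor-like cells, and Upk3b at 326.5 and 0.82 CPM in the same classes. The part of RNA from other cells in the uroplakin values was not tested.

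**Figure D2:**
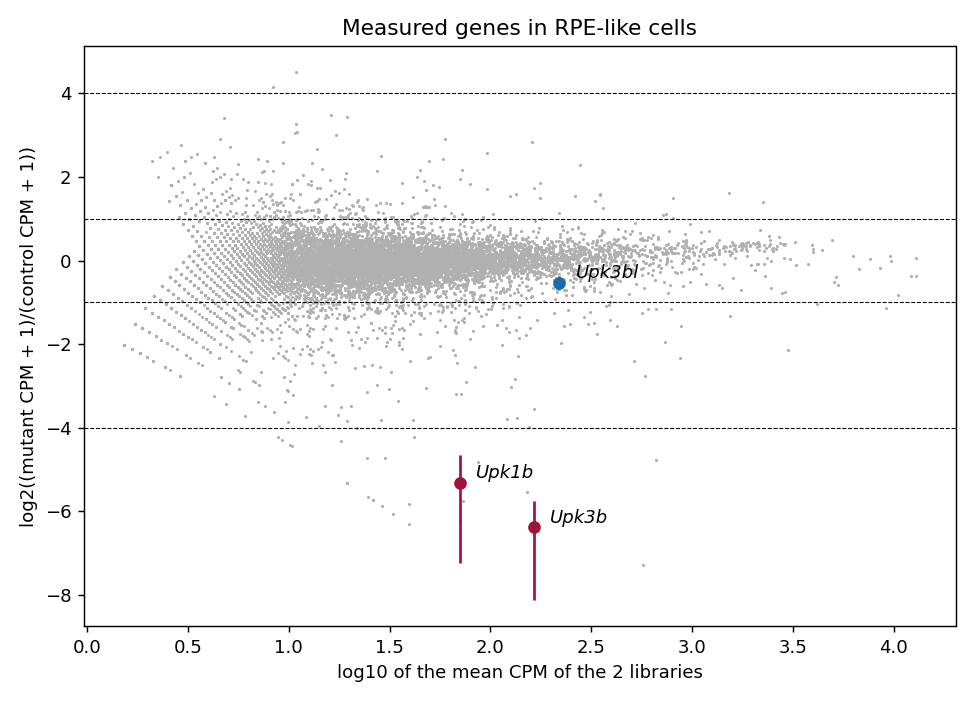
Log2 ratio of mutant to control (on CPM plus 1) against the log10 of the mean CPM for the 11678 measured genes in RPE-like cells, with dashed lines at 2-fold and 16-fold. Upk3b (-6.38) and Upk1b (-5.31) are red with their counting intervals and lie below the lower 16-fold line, while the neighbour Upk3bl (-0.52, blue) lies inside the 2-fold lines.

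The neighbouring gene Upk3bl did not share the contrast of Upk3b. It had 852 UMIs in control and 431 in mutant RPE-like cells, or 259.5 CPM (242 to 277.5) and 180 CPM (163 to 198). Its log2 ratio was -0.52 (-0.70 to -0.36), so the levels differed beyond counting error but by 1.44-fold, against 112-fold for Upk3b. With every cell thinned to 1000 UMIs before summing, the log2 ratio of Upk3bl was -0.19 and that of Upk3b -6.35. In cells of up to 8000 UMIs the ratio of Upk3bl was -0.18 (-0.75 to 0.34). It was -0.64 (-0.82 to -0.46) in cells over 8000 UMIs and -0.88 (-1.10 to -0.68) in cells over 16000 UMIs. Myrf itself had 743 and 64 UMIs, 226 and 26.7 CPM, with a log2 ratio of -3.03. Myrf is counted at its 3′ end, so transcripts that lack the floxed part can still be counted, and the residual UMIs do not measure intact Myrf.

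The share of RPE-like cells with a uroplakin UMI was compared after thinning each cell to 1000 UMIs, because mutant cells were deeper. Values are the mean over all possible draws, with 107 control and 26 mutant cells left out as shallower. Upk3b was found in 20.4% of 409 control cells (16.6 to 24.7) and 0.18% of 179 mutant cells (0 to 2.40). Upk1b was found in 10.2% (7.45 to 13.6) and 0.17% (0 to 2.37). Without thinning the shares were 41.5% and 0.98% for Upk3b and 32.9% and 1.46% for Upk1b. In retinal progenitor-like cells, taken as a background with a median of 4617 UMIs in the control, 0.41% of 3133 cells held Upk3b and 0.29% held Upk1b. The control RPE-like shares stood far above that background, and the mutant thinned shares were those of less than 1 cell. Upk3bl was found in 16.4% of thinned control and 15.3% of thinned mutant cells, with overlapping intervals.

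Detection of Upk3b and Upk1b rose with the depth of the control cells and was near complete in the deepest ones. Upk3b was found in 10.3% of 107 control cells with up to 1000 UMIs, 33.3% of 96 cells with 2000 to 4000 UMIs and 89.6% of 77 cells with over 16000 UMIs. Upk1b was found in 5.61%, 17.7% and 92.2% of the same cells. In the mutant, the 142 cells with up to 16000 UMIs held neither gene, and of the 63 deeper cells 2 held Upk3b and 3 held Upk1b. The level of Upk3b was also higher in deeper control cells, at 144 CPM in the shallowest bin and 408 CPM in the deepest, while that of Upk1b was 131, 73.0 and 172 CPM in the shallowest bin, between 2000 and 4000 UMIs and in the deepest bin. Above 8000 UMIs, where 152 control and 116 mutant cells remained, Upk3b was at 369 and 3.26 CPM and Upk1b at 155 and 2.80 CPM, so the contrast was as large among deep cells alone.

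**Figure D3:**
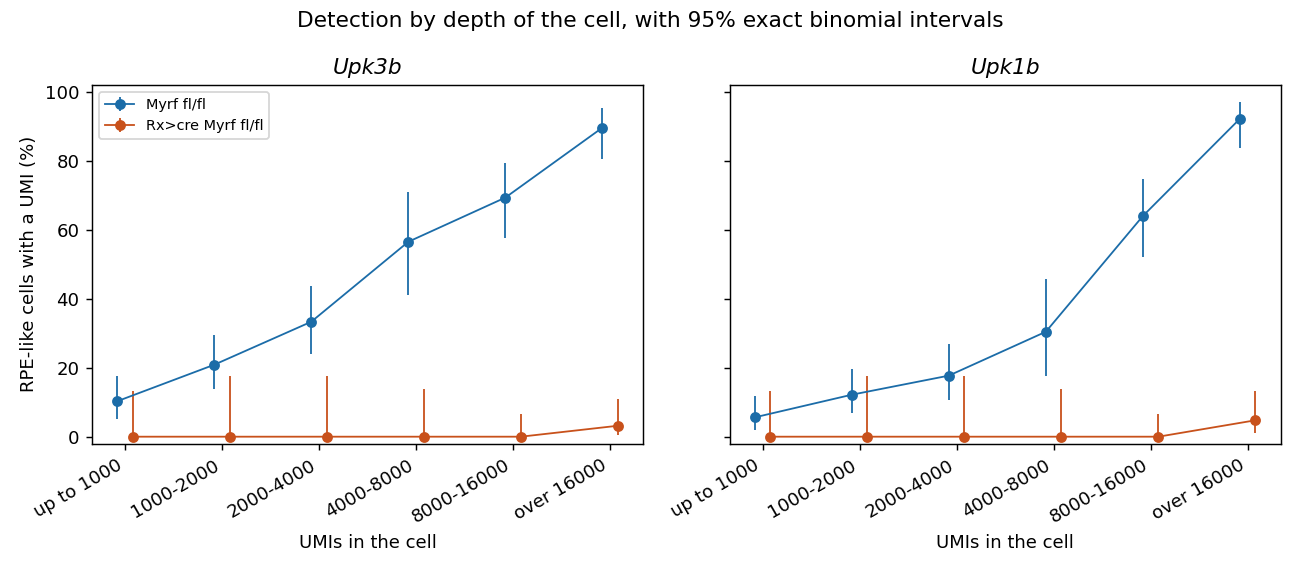
Percent of RPE-like cells with a UMI of Upk3b (left) or Upk1b (right) by the number of UMIs in the cell, for Myrf fl/fl (blue) and Rx>cre Myrf fl/fl (orange), with 95% exact binomial intervals. Control detection rises to 89.6% and 92.2% in cells over 16000 UMIs, where the mutant has 3.17% and 4.76%.

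The contrast was present in both RPE-like clusters. In the deeper cluster, led by Klk4, Slc16a8 and Ttr (141 control and 97 mutant cells), Upk3b had 883 and 1 UMIs (409 and 0.57 CPM) and Upk1b 365 and 2 UMIs (169 and 1.13 CPM). There Upk3b was in 86.5% and Upk1b in 80.1% of control cells, against 1.03% and 2.06% of mutant cells. In the shallower cluster, led by Pcp4 and Trpm1 (375 and 108 cells), Upk3b had 189 and 6 UMIs (168 and 9.55 CPM) and Upk1b 90 and 4 UMIs (80.0 and 6.36 CPM). The log2 ratios of Upk3b were -8.03 (-14.80 to -7.01) and -4.00 (-5.60 to -2.99). All 6 mutant Upk3b UMIs of the shallower cluster lay in 1 cell, and without that cell the log2 ratio over both clusters was -7.85 for Upk3b and -6.24 for Upk1b. Col1a1, at 1066 and 18.1 CPM in the deeper and 1675 and 123 CPM in the shallower cluster, moved with the genotype in both, and its part in the result was not tested.

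Only 3 of the 205 mutant RPE-like cells held a uroplakin UMI. The first (16012 UMIs) had 1 UMI of Upk3b, 1 of Upk1b and 3 of Myrf. The second (19625 UMIs) had 1 of Upk1b and 0 of Myrf. The third (19743 UMIs) had 6 of Upk3b, 4 of Upk1b and 5 of Myrf, but 0 of Upk3bl. These cells held 79 to 174 Pmel UMIs, 0 UMIs of Krt5, Krt13 or Krt14, keratins of stratified epithelium, and 0 of Rgr. A Myrf UMI was in 2 of these 3 cells and in 42 of the other 202 (20.8%). All 3 were above 16000 UMIs, a depth at which 42.9% of mutant RPE-like cells held Myrf.

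Among control RPE-like cells, Upk1b was found more often where Upk3b was found, and the size of the difference varied with depth. Without thinning, 128 of the 516 cells held both genes, 86 held Upk3b alone, 42 held Upk1b alone and 260 held neither. Upk1b was thus in 59.8% (52.9 to 66.4) of cells with Upk3b and 13.9% (10.2 to 18.3) of cells without it. After thinning to 1000 UMIs the shares were 16.9% (9.59 to 26.7) and 8.50% (5.70 to 12.1), with intervals that overlap. The cells with both numbered 14.1 on average over the draws, against 8.54 if the genes were found independently. Without thinning, 0 of 11 Upk3b cells and 6.25% of 96 others held Upk1b in the bin of up to 1000 UMIs, 20.8% and 9.89% between 1000 and 2000 UMIs, and 18.8% and 17.2% between 2000 and 4000 UMIs. The shares were 46.2% and 10.0% between 4000 and 8000 UMIs, 78.8% and 30.4% between 8000 and 16000 UMIs, and 92.8% and 87.5% above that. The gap was widest between 8000 and 16000 UMIs, where alone among the bins the intervals lie apart, and of the 77 deepest cells 64 held both transcripts. Within clusters, after thinning, the shares were 17.9% and 12.5% in the deeper and 15.9% and 6.79% in the shallower, with overlapping intervals in each. Without thinning they were 82.8% and 63.2% in the deeper, with overlapping intervals, and 29.3% and 10.6% in the shallower, with intervals apart. The part of the mix of clusters in the gap was not tested.

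**Figure D4:**
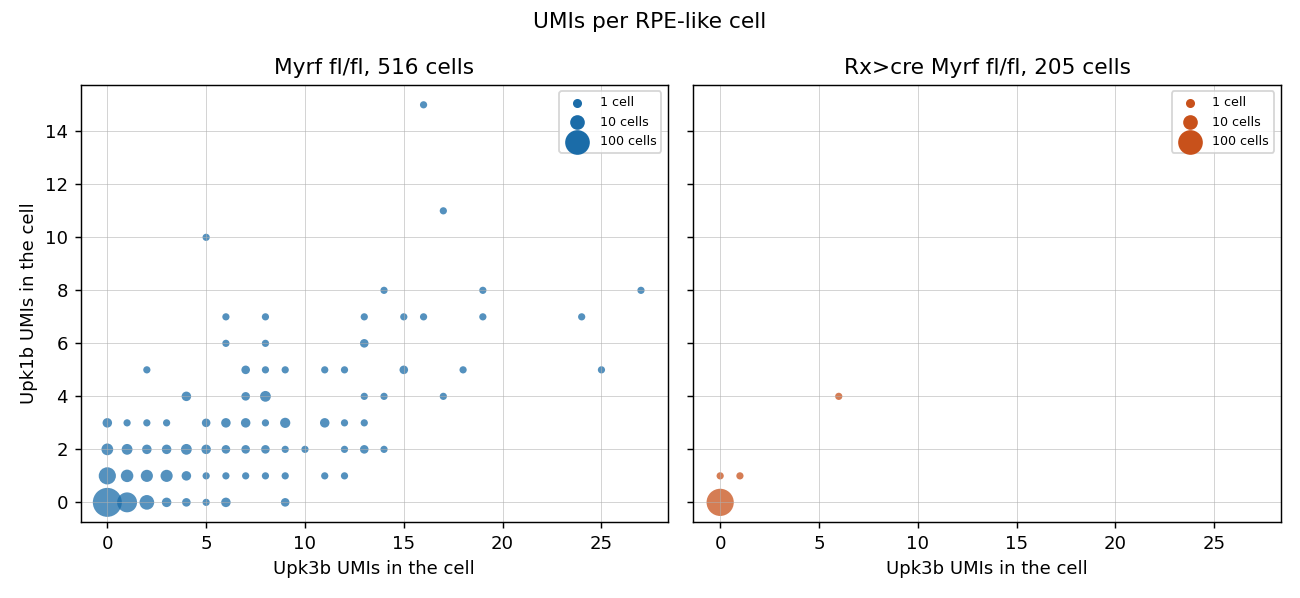
Upk1b UMIs against Upk3b UMIs per RPE-like cell in Myrf fl/fl (left, 516 cells) and Rx>cre Myrf fl/fl (right, 205 cells); marker area grows with the square root of the number of cells at a point. Control cells reach 27 Upk3b and 15 Upk1b UMIs, and 3 mutant cells leave the origin.

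The UMIs per control cell were spread widely. Of the 214 control RPE-like cells with Upk3b, 73 had 1 UMI, 66 had 2 to 5 and 75 had more than 5, with a median of 3 and a highest value of 27. Of the 170 cells with Upk1b, 67 had 1 UMI, 86 had 2 to 5 and 17 had more, with a median of 2 and a highest value of 15. The 10 richest cells held 18.5% of the Upk3b and 19.3% of the Upk1b UMIs, so neither gene rested on a few cells.

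Of 21 listed RPE genes, 16 were found more often in cells in which Upk3b was found after thinning and 5 less often, with intervals apart for Rdh5 alone. The matching share over all genes was not counted, so nothing is read from these counts. Upk3b was itself found in 30.9% of the thinned cells of the deeper RPE-like cluster and 14.9% of those of the shallower one, and Col8a1, Rdh5 and Slc16a8 are among the leading genes of the deeper cluster. The 10 genes with the widest gap in favour of Upk3b cells included Col8a1, a collagen gene of RPE (89.2% of Upk3b cells and 65.5% of the others), and Col9a3 (83.2% and 63.1%). Rdh10 (73.5% and 54.6%) and Rdh5 (63.8% and 46.7%), retinol dehydrogenases of the visual cycle, and Slc16a8, a lactate transporter of RPE (66.9% and 51.0%), were also among them. The others were Gpc3, Clu, Sostdc1, Krt18 and Rnaset2a. The counting intervals of the shares lie apart for Col8a1, Col9a3, Rdh10, Rdh5, Gpc3, Clu and Krt18 and meet or overlap for Slc16a8, Sostdc1 and Rnaset2a. These genes were picked from all genes for the size of this gap, so nothing is read from intervals that lie apart. Genes with the widest gap the other way included Col1a1 (39.0% and 53.5%), Col1a2 (42.4% and 56.8%) and Stmn1, which encodes a microtubule regulator (22.5% and 36.5%). Among genes tied to MYRF in the RPE, Myrf was in 20.7% (12.6 to 31.0) and 13.0% (9.5 to 17.1), Tmem98, which encodes a binding partner of MYRF, in 39.7% and 31.7%, and Ermn, a cytoskeletal gene, in 19.1% and 14.4%. For Myrf, Tmem98 and Ermn the intervals of the shares overlap. Sox10, which the study proposes to depend on Myrf in the RPE, went the other way (5.8% and 8.2%), also with overlapping intervals. The 5 listed genes found less often were Pax6 (9.39% and 14.99%), Lhx2 (12.2% and 16.6%), Id3 (32.5% and 37.7%), Sox10 (5.8% and 8.2%) and Best1 (0.041% and 0.042%). These cells come from 1 library, and the shares are a description.

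In surface epithelium-like cells, in contrast, Upk1b was present at similar or higher levels in the mutant library. Upk1b had 484 UMIs (396 CPM) in control cells against 475 UMIs (568 CPM, 518 to 622) in mutant cells, a log2 ratio of 0.52 (0.34 to 0.71), and was in 61.8% and 74.6% of cells. The clusters of this class were mixed in different proportions, so they were also read apart. In the cluster led by Krt14, a keratin of basal cells (89 and 37 cells), Upk1b was at 137 and 163 CPM with a log2 ratio of 0.25 (-0.24 to 0.73). In the cluster led by Krt13, a keratin of stratified mucosal epithelium (34 and 30 cells), it was at 774 and 889 CPM with a log2 ratio of 0.20 (-0.0045 to 0.40) and was in 97.1% and 96.7% of cells. Within either cluster a difference was not detectable at this depth. Upk3bl was higher in the mutant in both, with a log2 ratio of 0.55 in each. The sexes of the pooled animals also differed in this class. Cells that held Xist but lacked Y-linked UMIs numbered 17 control and 50 mutant cells, against 60 and 5 cells of the opposite kind. The log2 ratio of Upk1b was 0.64 (0.30 to 0.99) in the first and -0.14 (-0.67 to 0.36) in the second.

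Upk3b in surface epithelium-like cells was limited to a few cells. It had 33 UMIs in 5 of 123 control cells and 53 UMIs in 6 of 67 mutant cells, or 27.0 and 63.4 CPM, a log2 ratio of 1.20 (0.58 to 1.90). In the control, 1 cell held 23 of the 33 UMIs. In the mutant, cells with 22 and 18 UMIs held most of the 53. Upk3b past 2-fold here rests on these cells, and 2.92% of the 9163 measured genes were at least 2-fold higher in the mutant class, 0.0218% at least 16-fold higher, 6.69% at least 2-fold lower and 0.404% at least 16-fold lower. Of the members, Upk3b and Upk1b were measured in this class, and Upk3b alone was past 2-fold. In the cluster led by Krt13, which held 33 of the 33 control and 52 of the 53 mutant UMIs, Upk3b was at 66.4 and 111 CPM, a log2 ratio of 0.74 (0.09 to 1.42), so it was within 2-fold there. All of the Upk3b cells, 5 in the control and 6 in the mutant, also held Upk1b.

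The cells with Upk3b in the cluster led by Krt13 had more Upk1b than the other cells of that cluster, and in the mutant also more keratin transcripts of simple epithelia. In the control, Upk1b was at 1384 CPM in the 5 cells with Upk3b and 649 CPM in the 29 others, and in the mutant at 1533 and 677 CPM in 5 and 25 cells. In the mutant, the 5 cells held 401 of the 402 Krt8 UMIs of the cluster, 166 of 168 Krt18 UMIs and 192 of 193 UMIs of Msln, a gene of mesothelium and of some mucosal epithelia. Krt12, the keratin of corneal epithelium, was lower in them, at 528.5 CPM against 12397 CPM. In the control the 5 cells held 15 of 73 Krt8 UMIs and 1 of 23 Krt18 UMIs. Of them, the cell with 23 Upk3b UMIs held 15 Krt8 and 21 Msln UMIs and 0 of Krt12, while another with 3 Upk3b UMIs held 438 Krt12 UMIs and 0 of Krt8. These cells were chosen for their Upk3b, and their number is too small for more than a description.

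**Figure D5:**
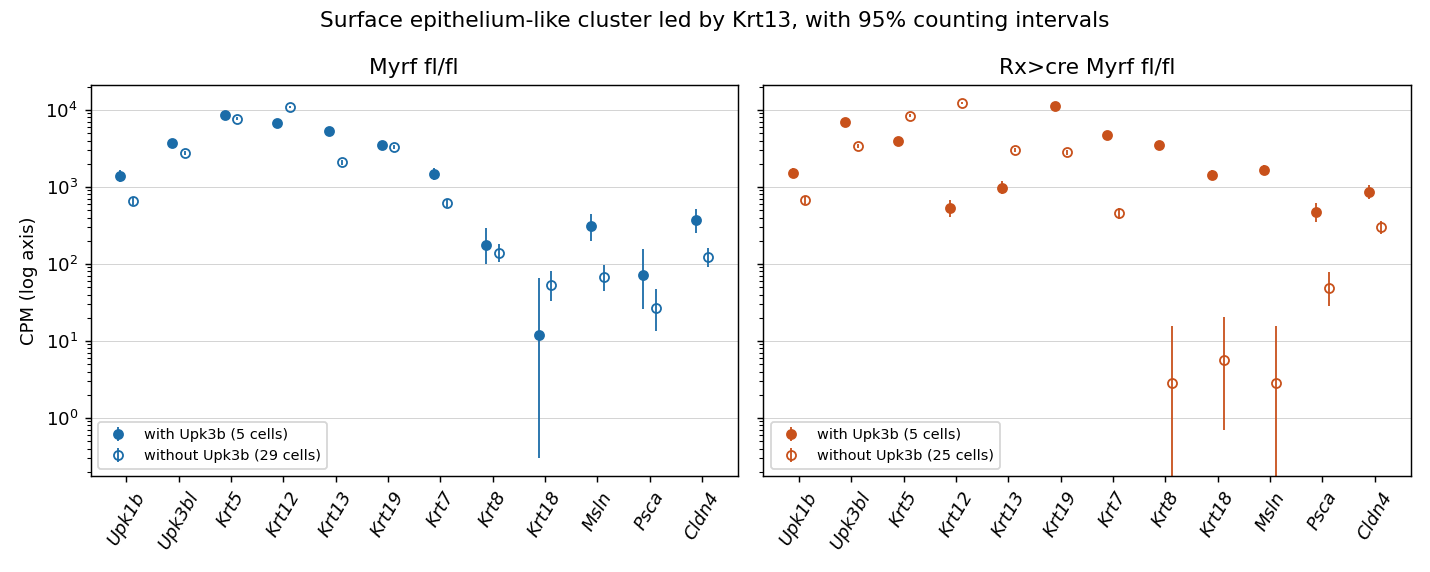
Level (CPM, log axis) of named genes in the surface epithelium-like cluster led by Krt13, in cells with a Upk3b UMI (filled) and without one (open), for Myrf fl/fl (left) and Rx>cre Myrf fl/fl (right), with 95% Poisson intervals. In both libraries Upk1b is higher in the Upk3b cells (1384 against 649 CPM and 1533 against 677 CPM), and in the mutant Krt8, Krt18 and Msln are close to limited to them.

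The other members were rare everywhere. Upk2, the partner of Upk1a, had 8 UMIs in 5 control and 10 UMIs in 8 mutant cells, of which 8 and 7 UMIs were in the cluster led by Krt13 (16.1 CPM in the control). Of the 5 cells with Upk3b in that cluster, 2 in the control and 3 in the mutant held Upk2. Upk1a had 25 UMIs in 24 control cells and 28 UMIs in 27 mutant cells, spread over retinal and other classes at no more than 4.78 CPM, with 2 and 4 UMIs in surface epithelium-like cells. In retinal progenitor-like cells it was at 0.38 and 0.51 CPM. Upk3a had 3 and 2 UMIs in all kept cells, with 0 in RPE-like and surface epithelium-like cells. Transcripts of the UPK1A and UPK2 pair were not detectable in RPE-like cells at this depth.

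Over the named classes of both libraries, the levels of Upk3b and Upk1b followed each other. Pearson's r between their log2(CPM + 1) was 0.92 over 28 class levels, which share libraries and depth, so no test is given. The levels include RPE-like cells of both genotypes, on which the members were selected, so this r and the place of either gene in the order below partly restate that choice. Of 7260 genes with at least 50 UMIs in control RPE-like cells, Upk1b was the second most like Upk3b, after Gsta1, a glutathione transferase gene (0.95). Gm3776 (0.90), Il17re, an interleukin receptor gene (0.89), Crb3, an apical polarity gene (0.86), and Upk3bl (0.85) came next, followed by Eps8l2, Gsta3, Cldn1 and Krt8. The genes most like Upk1b were Eps8l2 (0.93), Il17re (0.92), Upk3b (0.92), Upk3bl (0.91) and Gsta1 (0.90), followed by Perp, Gm3776, Crb3, Gsta3 and F3. The levels of the other genes in RPE-like cells are for the same reason a description, with Gsta1 at 147 and 10 UMIs (log2 ratio -3.14), Il17re at 88 and 8 UMIs (-2.68) and Gm3776 at 94 and 4 UMIs (-3.47). Krt8 had 915 and 1082 UMIs (0.70) and Crb3 225 and 193 UMIs (0.23).

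Of 29 tetraspanin genes other than the members, the family of UPK1A and UPK1B, 22 were measured in RPE-like cells and 3 were at least 2-fold lower, against 6.41% of all measured genes. These were Tspan15 (211 and 63 UMIs, log2 ratio -1.26), Tspan2 (49 and 16 UMIs, -1.05) and Cd82 (599 and 215 UMIs, -1.01). Tspan33 was at least 2-fold higher, on 6 and 12 UMIs (1.09), against 2.94% of all measured genes. Cd63, Cd81 and Tspan3 were the highest of the family, at 2335 and 2213, 695 and 873, and 516 and 411 CPM. Tspan10, known as a gene of pigment cells, was at 317 and 236.5 CPM. The median log2 ratio of the family was -0.18, beside -0.03 over all measured genes.

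Of 19 urothelial genes, 7 were measured in RPE-like cells, with 2 at least 2-fold lower, Krt19 (23 and 3 UMIs) and Krt5 (11 and 1 UMIs), and 1 higher, Rab27b (15 and 33 UMIs, 1.41), against 6.41% and 2.94% of all measured genes, and a median of -0.09. Krt18 (2172 and 2037 CPM) and Krt8 (279 and 452 CPM), keratins of simple epithelia, and Krt7 (7.31 and 9.19 CPM) were the highest of that list in the control. Of 8 mesothelial genes 3 were measured, with Aldh1a2 (10 and 1 UMIs) at least 2-fold lower, against 6.41% of all measured genes, Gpm6a (-0.19) and Nkain4 (-0.64) within 2-fold, and a median of -0.64, beside -0.03 over all measured genes. Msln, Wt1, Lrrn4 and Muc16 had 0 UMIs in both libraries. In surface epithelium-like cells 15 of the 19 urothelial genes were measured and 6 were at least 2-fold higher in the mutant (Psca, Krt8, Cldn4, Krt18, Krt7 and Krt19), against 2.92% of all measured genes, with a median of 0.75. That count rests on the cells with Upk3b described above. Without them, an alternative chosen after seeing the data, 2 of the 6 genes were still at least 2-fold higher, Psca (11 and 20 UMIs, log2 ratio 1.43) and Cldn4 (77 and 121 UMIs, 1.30). Krt19 (0.23) and Krt7 (0.02) were then within 2-fold, and Krt8 (-0.85) and Krt18 (-0.98) had the opposite sign.

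The contrast in RPE-like cells was present in cells of either sex. Among cells that held Xist but lacked Y-linked UMIs (83 control and 79 mutant), Upk3b had 311 and 1 UMIs and Upk1b 131 and 2 UMIs. Among cells of the opposite kind (134 and 36), Upk3b had 503 and 6 UMIs (log2 ratio -4.73) and Upk1b 204 and 4 UMIs (-3.97). These 6 and 4 mutant UMIs all lay in 1 cell, the one with 19743 UMIs described above. The pools held animals of both sexes, and cells with neither or both kinds of transcript were left out of these counts.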

How the data were processed

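Raw UMI counts per gene and barcode were deposited by the authors for 2 libraries, 1 per genotype, as 10x matrices. Submitters' processing notes name Cell Ranger 7.1.0, Seurat 4.1.1 and mm10, while the matrix header gives software version 3.1.0. The annotation used for counting is not given in the sources used here. The barcodes in the files were already called as cells.

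Barcodes with at least 200 genes and at most 15% mitochondrial UMIs were kept (14131 control and 12027 mutant). Doublets were scored with Scrublet in scanpy 1.11.5, and the highest scores were removed. The rates expected for the loading were 11.4% and 9.78%, and 11.6% of control and 10.1% of mutant barcodes were removed, since barcodes tied at the score of the last one were also taken. Scores were ranked in this way because its own threshold marked 0% of the control library. The upper limit of 2000 UMIs that the study states was an alternative only, since 80.2% and 92.1% of barcodes lie above it. Cells were integrated and clustered in Seurat 5.3.0 (R 4.3.3) on 1942 variable genes, 30 components and resolution 1, without the members, the gene lists and the pigment markers. A cluster was named where at least 3 markers, and no fewer than were missed, were at least 2-fold enriched in at least 10% of cells, where its median depth was not under the overall median divided by 3, and where no other class had more markers among its 10 leading genes.

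Counts were summed per class and library and divided by the class total (CPM). Ratios are log2 of CPM plus 1, with an interval for the ratio of the CPM from the exact binomial split of the summed UMIs, levels have exact Poisson intervals and shares exact Clopper-Pearson intervals, the same formula being applied to expected counts after thinning. A count of 0 was bounded by 3 counts. Since UMIs from 1 library share cells and animals, intervals say nothing of the spread between animals. A gene was measured with at least 10 UMIs in either library. Thinning to 1000 UMIs was first done by a single draw and replaced by the mean over all draws after 2 single draws had given different co-detection. Scripts used Python 3.11.15, numpy 2.4.6, scipy 1.17.1, pandas 2.3.3 and matplotlib 3.10.9, with edgeR 4.0.16 for scaling factors only, and the ratio was tested on simulated data.

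The members and lists were chosen with earlier results of these data known. Named genes were the members, Upk3bl, listed genes past 2-fold or among the 3 highest of their list in control RPE-like cells, the 10 most like Upk3b and Upk1b over classes of at least 20 cells, a list of RPE genes, and the 10 genes with the largest gain in Upk3b cells. Genes with the largest loss, the genes next to Upk3b in rank and the genes compared within surface epithelium-like cells were chosen after their values were seen.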

Additional observations from a re-analysis of the deposited data

Results flagged for a closer look

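The log2 ratios of mutant to control had opposite directions in the 2 classes that held most uroplakin UMIs, when each class was taken whole. Upk3b was at -6.38 in RPE-like and 1.20 in surface epithelium-like cells, Upk1b at -5.31 and 0.52, and the neighbour Upk3bl at -0.52 and 0.72. With 1 library per genotype the difference between the classes was not tested for any of the 3 genes. Within the surface epithelium-like clusters Upk1b was at 0.25 and 0.20, with intervals that include 0, and among cells with Y-linked UMIs but not Xist Upk1b was at -0.14 and Upk3bl at -0.55. Upk3b was at 0.74 in the cluster led by Krt13, at 2.49 (3 and 47 UMIs) among cells with Xist but not Y-linked UMIs, and at 28 control and 0 mutant UMIs among cells of the opposite kind, of which the mutant had 5. Its value over the whole class rests on 5 control and 6 mutant cells. The sex of the pooled animals moved with the genotype in the surface epithelium-like cells, and its part in the values there was not tested.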

How the results depend on the processing

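No paired analysis was possible because there was 1 library per genotype, and for the same reason no replicate could be left out. The mutant values in RPE-like cells rest on 7 Upk3b and 6 Upk1b UMIs. The log2 ratios of Upk3b and Upk1b in RPE-like cells stayed negative under all 21 alternatives each, and 17 of the 21 stayed within the counting interval of the reported value. They were -5.38 and -4.32 with a mitochondrial limit of 5%, -4.73 and -3.97 in cells with a Y-linked UMI and no Xist, -4.70 and -3.57 with 10 CPM added, and -4.00 and -3.46 in the shallower cluster alone. In the Y-linked cells and in the shallower cluster, all mutant UMIs (6 of Upk3b and 4 of Upk1b) lay in the same 1 cell. Upk3bl stayed within its interval under 14 of 21 alternatives and was at 0.11 with at most 2000 UMIs per cell, on 46 and 9 UMIs. It was at -0.78 in cells with Xist alone and -0.72 in cells with Y-linked UMIs alone, and at -0.35 with the pigment gate, -0.26 as a mean over cells, -0.24 in the shallower cluster and -0.19 with thinned cells. The thinned control share was, for Upk3b, 15.8% with at most 2000 UMIs per cell. With a gate on pigment genes it was 14.6% for Upk3b and 7.32% for Upk1b, with thinning to 2000 UMIs 36.7% and 19.6%, and without thinning 41.5% and 32.9%. The mutant shares were 0 for both genes with at most 2000 UMIs per cell and in the lowest of 20 single draws. Upk1b was in 28.0% of Upk3b cells and 14.8% of the others with thinning to 2000 UMIs, in 59.8% and 13.9% without thinning, and in 12.5% of the others in the deeper cluster. Single draws gave 11.1% to 25.0% in Upk3b cells and 6.34% to 10.9% in the others. Without the filter on low counts, 568 genes were at least 2-fold higher in mutant RPE-like cells, against 343. Alternatives on single clusters, single cells, single draws, cells over 8000 UMIs and shared barcodes, and all of those for Upk3bl and surface epithelium-like cells, were chosen after seeing the data. The cause of these shifts was not tested.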

Other observations

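In surface epithelium-like cells the log2 ratio of Upk3bl was 1.15 (0.99 to 1.31) among cells that held Xist but lacked Y-linked UMIs, on 17 control and 50 mutant cells, and -0.55 (-0.81 to -0.30) among cells of the opposite kind, on 60 control and 5 mutant cells. The split by cluster of the same class gave 0.55 in each cluster.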
